A study of Mus musculus with 11 samples.

Results

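The 8 genes described here belong to the lipase and amylase group of pancreatic digestion, and they were followed in RNA from 266-6 cells, a mouse pancreatic acinar cell line. They were chosen by name, as the genes with the symbols Cel, Pnlip, Pnliprp1, Pnliprp2, Clps, Pla2g1b, Amy1 and Amy2b, out of 23284 gene symbols counted in every library. RNA was sequenced from 11 libraries in 4 groups, which differ by siRNA and by epidermal growth factor (EGF). All cells were reverse transfected with siRNA and held for 48 h, went without serum overnight, and then had 8 h of EGF or of its vehicle, 0.1% BSA. The groups were Arid1a siRNAs (25 nM) with 40 ng/ml EGF (n = 3), Arid1a siRNAs with vehicle (n = 3), the non-targeting siRNA NT5 with 40 ng/ml EGF (n = 3), and NT5 with vehicle (n = 2). The protein of Arid1a binds DNA as part of the SWI/SNF complex, which remodels chromatin. The study thus asks how its depletion and EGF receptor signalling act on acinar cells. All libraries come from a single line in culture, the knockdown is transient, and nothing in the labels says that replicates were separate cultures. The p-values therefore take their error from these samples alone, and that spread may be technical. In RNA from whole cultures, fewer cells making an enzyme and less of its RNA per cell cannot be told apart.

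Acinar cells make and secrete digestive enzymes, and lipases work on fat droplets that bile salts have coated. Pnlip, pancreatic triglyceride lipase, needs the small cofactor colipase, the product of Clps, to stay on such a droplet. Cel, the bile salt-dependent carboxyl ester lipase, cleaves cholesteryl and vitamin esters as well as triglycerides, while amylases split starch. Transcription of acinar enzyme genes is known to depend on the PTF1 complex, which binds an E-box beside a TC box, and on the nuclear receptor NR5A2.

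The stretches below are the promoters of Cel, Pnlip, Pnliprp1 and Amy1. With the Arid1a siRNAs Cel had the largest fitted change, Amy1 the second largest and Pnlip no call, while Pnliprp1 had the highest level. Without EGF the change of Amy1 was close to that of Clps. The stretches are RefSeq sequence of the mouse build GRCm38.p6 and run from 250 bases before to 50 bases after an annotated start. Capitals mark exact matches on either strand to 4 motifs. The first was CACCTG, a form of the E-box. The others were TTTCCC, the TC box, and AAGGTCA, which nuclear receptors of the NR5A kind bind. The last was TATAAA, the TATA box. The Cel window is chr2:28563354-28563653 on the minus strand, and Pnlip and Pnliprp1 lie on the plus strand at chr19:58670115-58670414 and chr19:58728637-58728936. The Amy1 window belongs to the second of its 2 listed starts and is chr3:113574713-113575012 on the minus strand.
Cel: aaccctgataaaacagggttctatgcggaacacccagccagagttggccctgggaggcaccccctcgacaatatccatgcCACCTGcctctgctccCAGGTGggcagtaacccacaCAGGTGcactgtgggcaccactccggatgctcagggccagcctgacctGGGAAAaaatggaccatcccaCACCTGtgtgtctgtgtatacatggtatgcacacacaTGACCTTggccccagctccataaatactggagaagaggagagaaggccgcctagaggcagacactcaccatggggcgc
Pnlip: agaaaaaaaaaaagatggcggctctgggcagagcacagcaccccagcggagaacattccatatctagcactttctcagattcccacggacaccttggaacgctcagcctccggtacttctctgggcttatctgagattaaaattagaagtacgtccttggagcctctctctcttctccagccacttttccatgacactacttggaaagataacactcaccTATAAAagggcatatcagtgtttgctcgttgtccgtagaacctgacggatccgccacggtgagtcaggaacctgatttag
Pnliprp1: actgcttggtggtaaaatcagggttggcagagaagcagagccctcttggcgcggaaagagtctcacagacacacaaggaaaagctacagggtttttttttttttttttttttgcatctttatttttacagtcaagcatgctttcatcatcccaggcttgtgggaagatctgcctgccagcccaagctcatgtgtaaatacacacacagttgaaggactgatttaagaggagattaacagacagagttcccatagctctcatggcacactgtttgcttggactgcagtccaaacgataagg
Amy1: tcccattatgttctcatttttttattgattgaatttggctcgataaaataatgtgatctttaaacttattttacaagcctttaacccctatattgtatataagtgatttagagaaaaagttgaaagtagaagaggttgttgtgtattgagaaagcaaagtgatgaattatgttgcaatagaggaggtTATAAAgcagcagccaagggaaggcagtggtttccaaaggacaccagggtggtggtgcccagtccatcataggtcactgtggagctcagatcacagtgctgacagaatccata

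The Cel window held CACCTG 4 times, on the plus strand of the gene at -170 and -65 and on its other strand at -154 and -134 from the start. It also held TTTCCC at -86 and AAGGTCA at -28, both on the other strand. Of 32851 mouse promoter windows of this length, 20.2% held CACCTG at least once, 25.2% TTTCCC, 4.72% AAGGTCA and 13.6% TATAAA. Only 18 of them (0.0548%) held CACCTG at least 4 times, a bound set after the Cel count was seen, and 90 (0.274%) held the first 3 motifs together. The Pnlip window held TATAAA at -30, and the Amy1 window held it at -63. No motif was found in the Pnliprp1 window, in that of Pla2g1b or at the other Amy1 start. The Pnliprp2 window held CACCTG at -228, and the Amy2b window held CACCTG at -132, TATAAA at -26 and, after the start, TTTCCC at 37. Promoter windows were matched for 7 of the 8 members, which leaves out Clps. A match describes letters in a window and does not show that a factor binds there.

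Depth was 11947581 to 14143225 counted reads with Arid1a siRNAs and EGF, 10279763 to 15710575 with Arid1a siRNAs, 13547278 to 16796787 with control siRNA and EGF, and 14059719 to 19773007 with control siRNA. Arid1a itself stood at 145, 122 and 152 CPM (reads of a gene scaled to TMM-adjusted library size) with the siRNAs and EGF, against 308, 263 and 300.2 CPM under control siRNA plus EGF. Without EGF it stood at 151, 157 and 127 CPM with its siRNAs and at 292 and 399.9 CPM with control siRNA, so the knockdown left part of the RNA. Most acinar markers were present, at levels far apart: 8 of the 9 on the list had enough reads to test. Ctrb1 (chymotrypsinogen) stood at 11300 to 14300 CPM, and Prss1 at 0.512 to 5.71 CPM on 7 to 113 reads a library. Gp2, the main zymogen granule membrane protein, had only 0 to 3 reads a library. Of the islet markers Ins1, Ins2 and Sst were at 0 reads in all libraries, while Chga stood at 626 to 1160 CPM, Isl1 at 8.45 to 15.3 CPM and Ppy had 1 to 31 reads. The 2 control siRNA libraries without EGF gave the largest chi-square per degree of freedom of any pair of replicates (10.9, against 1.57 to 9.04). That value grows with depth, which was highest in a library of this group, so it does not rank the pairs by their spread. As the group has only 2 libraries, the members' changes set against it are given also without each of them. Leaving one out leaves a lone control, which is assumed to vary like the other groups.

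All members but Amy2b could be measured well enough to test, and their RNA levels lay far apart. On a per-length scale (CPM per kilobase of the longest annotated transcript), Pnliprp1 stood at 172 to 183 with Arid1a siRNAs and EGF, at 215 to 261 with Arid1a siRNAs, at 109 to 126 with control siRNA and EGF, and at 167 to 187 with control siRNA. No other member exceeded 22.3 CPM per kilobase in any library. In cells with Arid1a siRNAs, Clps (14.5 to 22.3 CPM per kilobase) and Cel (17.9 to 19.8) came next and overlapped. Amy1 (9.02 to 11.2), Pnliprp2 (5.10 to 7.70) and Pnlip (2.97 to 3.28) followed without overlap, and Pla2g1b (1.43 to 3.12) overlapped Pnlip. In cells with control siRNA, Clps (8.90 to 9.69 CPM per kilobase) stood second, and Pnliprp2 (4.6 to 5.15), Amy1 (3.36 to 6.10) and Cel (3.02 to 5.28) overlapped one another. Pnlip (2.56 to 3.47 CPM per kilobase) overlapped Cel there, and Pla2g1b (0.772 to 3.0) overlapped Pnlip. The order of Clps and Cel depended on the scale, since in the deposited FPKM values Clps averaged 35.3 ± 7.72 and Cel 18.9 ± 1.05 with Arid1a siRNAs (SD, n = 3 each), without overlap.

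**Figure D1:**
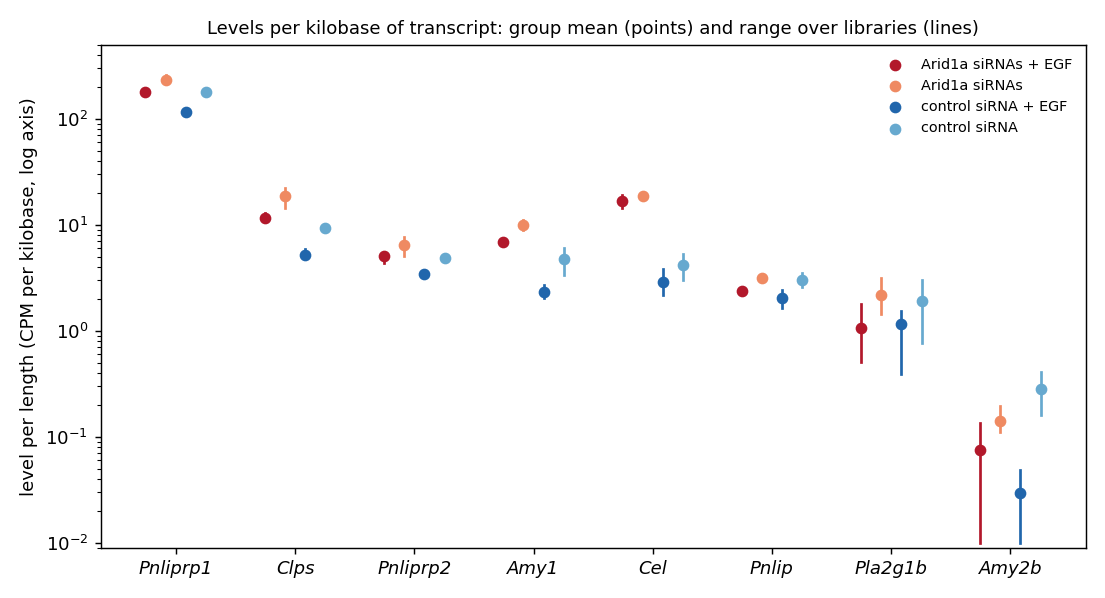
Level of each member per kilobase of transcript (CPM per kilobase, log axis) in cells with Arid1a siRNAs and EGF, Arid1a siRNAs, control siRNA and EGF, and control siRNA; points are group means and lines the range over libraries, with 0 drawn at the foot of the axis. Pnliprp1 lies above 100 CPM per kilobase in all groups, while Amy2b lies below 1.

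Summed over the 8 members, the level was 339 to 368 CPM under Arid1a siRNAs plus EGF, 429 to 515 CPM with Arid1a siRNAs, 197 to 230 CPM under control siRNA plus EGF, and 302 to 346 CPM with control siRNA. Pnliprp1 supplied most of these reads, at 80.5% to 81.9% with Arid1a siRNAs and EGF, 80.9% to 82.2% with Arid1a siRNAs, 88.4% to 89.6% with control siRNA and EGF, and 87.5% to 89.6% with control siRNA. Cel supplied 8.72% to 10.6% with Arid1a siRNAs and EGF, 7.16% to 9.54% with Arid1a siRNAs, 2.22% to 3.43% with control siRNA and EGF, and 2.06% to 3.14% with control siRNA. Its share was higher in every library with Arid1a siRNAs than in any with control siRNA, with or without EGF.

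With the Arid1a siRNAs the called members were all higher, and with EGF the called members were all lower. Without EGF, 4 of the 7 tested members (Cel, Pnliprp1, Clps and Amy1) rose with the Arid1a siRNAs, where 18.8% of all tested genes were called higher and 38.9% called in either direction. The median log2 change was 0.41 over the members and -0.009 over all genes. In the presence of EGF, 5 of 7 rose, Pnliprp2 being the added gene, where 23.7% of genes were called higher and 46.9% in either direction (medians 0.62 and 0). EGF lowered 5 of 7 in cells with control siRNA (Pnlip, Pnliprp1, Pnliprp2, Clps and Amy1), where 18.8% of genes were called lower and 35.6% in either direction (medians -0.62 and -0.028). In cells with Arid1a siRNAs EGF lowered 3 of 7 (Pnliprp1, Clps and Amy1), where 10.4% of genes were called lower and 23.4% in either direction (medians -0.39 and -0.009). A call is a Benjamini-Hochberg adjusted p under 0.05 over all 13343 genes tested in edgeR's quasi-likelihood test. These comparisons share groups of libraries, so their counts are not independent of one another.

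**Figure D2:**
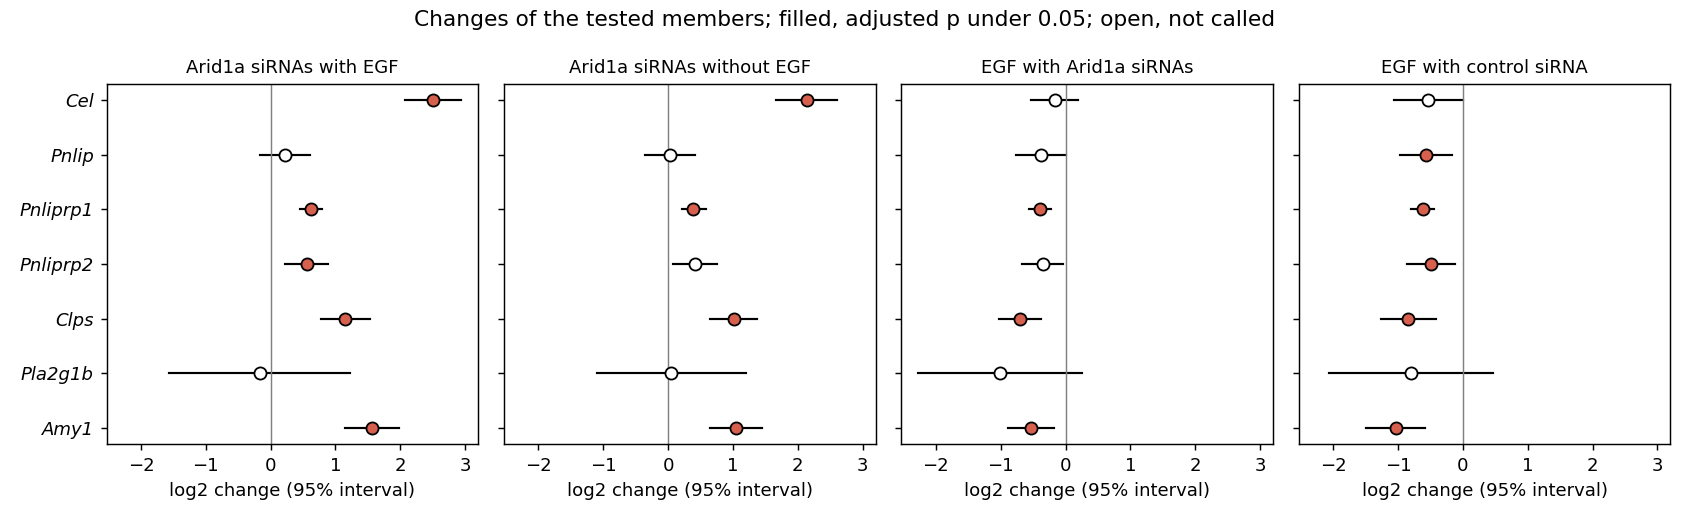
Log2 change of each tested member (points) with its 95% interval (lines) for the Arid1a siRNAs with and without EGF and for EGF in cells with Arid1a siRNAs and with control siRNA. Filled points passed the test; Cel lies at 2.50 and 2.14 with the siRNAs, and the filled points under EGF all lie below 0.

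Cel changed most of all tested members with the Arid1a siRNAs, but not with EGF. It stood at 34.0, 39.0 and 29.6 CPM under Arid1a siRNAs plus EGF, and at 40.9, 37.9 and 36.9 CPM with Arid1a siRNAs. It stood at 5.51, 7.90 and 4.46 CPM under control siRNA plus EGF, and at 10.9 and 6.23 CPM with control siRNA, on 58 to 617 reads a library. The lowest library with Arid1a siRNAs was above the highest with control siRNA, whether or not EGF was given. Cel was 5.66-fold higher with the siRNAs in the presence of EGF (log2 2.50 ± 0.20 SE, edgeR adjusted p = 6.74e-07), which ranked it 17 of 13343 genes by log2 change. Without EGF it was 4.40-fold higher (log2 2.14 ± 0.21, edgeR adjusted p = 8.49e-06) and ranked 30. The log2 change without EGF was 2.63 without control siRNA replicate 1 and 1.82 without replicate 2, and it passed the test both times. EGF gave Cel a log2 change of -0.17 ± 0.17 in cells with Arid1a siRNAs, where the groups overlapped (edgeR adjusted p = 0.511, 95% interval -0.53 to 0.19). In cells with control siRNA the groups overlapped too, and the log2 change was -0.54 ± 0.25 (edgeR adjusted p = 0.110). That last value turned on single libraries: it was -0.05 without control siRNA replicate 1, but -0.85 and called without replicate 2 (edgeR adjusted p = 0.0102) and -0.81 and called without the EGF-treated replicate 2 (edgeR adjusted p = 0.0219).

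Pnlip, the main triglyceride lipase of adult pancreatic juice, was low and did not pass the test with the Arid1a siRNAs. It stood at 3.59, 3.73 and 3.35 CPM under Arid1a siRNAs plus EGF, and at 4.66, 4.42 and 4.87 CPM with Arid1a siRNAs. It stood at 2.46, 3.64 and 3.0 CPM under control siRNA plus EGF, and at 5.16 and 3.80 CPM with control siRNA, on 34 to 102 reads a library. The libraries with Arid1a siRNAs overlapped those with control siRNA both with and without EGF. The log2 change with the siRNAs was 0.22 ± 0.18 in the presence of EGF (95% interval -0.17 to 0.61, edgeR adjusted p = 0.350) and 0.03 ± 0.18 without it (95% interval -0.36 to 0.42, edgeR adjusted p = 0.922). The value without EGF was 0.29 without control siRNA replicate 1 and -0.15 without replicate 2, neither called. EGF lowered Pnlip 1.49-fold in cells with control siRNA, where the groups did not overlap (log2 -0.57 ± 0.19, edgeR adjusted p = 0.0288). This call was lost without control siRNA replicate 1 (log2 -0.32, edgeR adjusted p = 0.357), without EGF-treated replicate 1 or 3 (edgeR adjusted p = 0.111 and 0.0674), in the DESeq2 test (adjusted p = 0.0909), in a fit of only these groups (edgeR adjusted p = 0.0862) and with the replicate number as a block (edgeR adjusted p = 0.0653), and it held without control siRNA replicate 2 (log2 -0.75, edgeR adjusted p = 0.0126). In cells with Arid1a siRNAs every EGF library was lower than every one without, but the change did not pass (log2 -0.38 ± 0.18, edgeR adjusted p = 0.138).

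Pnliprp1, a relative of pancreatic lipase with little known lipase activity, had the most reads, 2341 to 5990 a library. It stood at 285, 297 and 278 CPM under Arid1a siRNAs plus EGF, and at 348, 360 and 423 CPM with Arid1a siRNAs. It stood at 176, 204 and 180 CPM under control siRNA plus EGF, and at 303 and 271 CPM with control siRNA. Libraries with Arid1a siRNAs were above those with control siRNA in both settings, and EGF-treated libraries were below untreated ones under both siRNAs. The siRNAs raised Pnliprp1 1.54-fold in the presence of EGF (log2 0.62 ± 0.08, edgeR adjusted p = 1.71e-05) and 1.31-fold without it (log2 0.39 ± 0.09, edgeR adjusted p = 0.00256). EGF lowered it 1.31-fold in cells with Arid1a siRNAs (log2 -0.39 ± 0.08, edgeR adjusted p = 0.00189) and 1.54-fold in cells with control siRNA (log2 -0.62 ± 0.09, edgeR adjusted p = 5.92e-05). Without control siRNA replicate 1 or 2 the change with the siRNAs was 0.48 or 0.32 and that with EGF -0.54 or -0.70 on the log2 scale, all called. The EGF call under Arid1a siRNAs was lost in limma on log2(FPKM + 1) over all genes (adjusted p = 0.0561) and kept in the same fit over genes with a mean FPKM of at least 0.5 (adjusted p = 0.00556).

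Pnliprp2, a lipase that in rodents is made chiefly around birth and that also cleaves galactolipids, followed a like order at a far lower level. It stood at 8.59, 6.80 and 8.45 CPM under Arid1a siRNAs plus EGF, and at 8.02, 10.2 and 12.1 CPM with Arid1a siRNAs. It stood at 5.14, 5.43 and 5.61 CPM under control siRNA plus EGF, and at 7.23 and 8.09 CPM with control siRNA. With EGF every Arid1a siRNA library was above every control library, whereas without EGF the lowest Arid1a siRNA library fell within the control range. It rose 1.47-fold with the siRNAs in the presence of EGF (log2 0.56 ± 0.16, edgeR adjusted p = 0.00949). In limma on log2(FPKM + 1) that call was lost over all genes (adjusted p = 0.0951) and kept over genes with a mean FPKM of at least 0.5 (adjusted p = 0.0159). Without EGF the log2 change of 0.41 ± 0.16 did not pass (edgeR adjusted p = 0.0571). That value passed with upper-quartile scaling (log2 0.47, edgeR adjusted p = 0.0299) and without Arid1a siRNA replicate 1 (log2 0.55, edgeR adjusted p = 0.0139), but not without control siRNA replicate 1 (log2 0.33) or 2 (log2 0.49). EGF lowered Pnliprp2 1.41-fold in cells with control siRNA (log2 -0.50 ± 0.17, edgeR adjusted p = 0.0335). This call fell away without any 1 of the 5 libraries compared (edgeR adjusted p = 0.0561 to 0.14) or by testing with DESeq2 (adjusted p = 0.0571). In cells with Arid1a siRNAs the groups overlapped and the log2 change was -0.35 ± 0.15 (edgeR adjusted p = 0.100).

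Clps, which encodes colipase, moved like Pnliprp1 and by more on the log2 scale. It stood at 7.82, 6.73 and 6.52 CPM under Arid1a siRNAs plus EGF, and at 8.86, 11.8 and 13.6 CPM with Arid1a siRNAs. It stood at 2.97, 3.58 and 2.92 CPM under control siRNA plus EGF, and at 5.92 and 5.44 CPM with control siRNA, on 38 to 192 reads a library. None of the 4 pairs of groups overlapped. Clps was 2.21-fold higher with the siRNAs in the presence of EGF (log2 1.15 ± 0.18, edgeR adjusted p = 0.000112) and 2.01-fold higher without it (log2 1.01 ± 0.17, edgeR adjusted p = 0.000338). EGF lowered it 1.63-fold in cells with Arid1a siRNAs (log2 -0.70 ± 0.15, edgeR adjusted p = 0.00361) and 1.79-fold in cells with control siRNA (log2 -0.84 ± 0.20, edgeR adjusted p = 0.00378). Without control siRNA replicate 1 or 2 the change with the siRNAs was 1.08 or 0.95 and that with EGF -0.78 or -0.89 on the log2 scale, all called. The EGF call under Arid1a siRNAs was lost by limma on log2(FPKM + 1) over all genes (adjusted p = 0.0737) and kept in the same fit over genes with a mean FPKM of at least 0.5 (adjusted p = 0.00902). The colipase RNA thus rose with the siRNAs while that of Pnlip, the lipase it serves, was not called.

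Pla2g1b, a secreted phospholipase A2 made as a proenzyme, was barely measurable, with 3 to 33 reads a library and 135 in all. It stood at 0.28, 0.51 and 1.0 CPM under Arid1a siRNAs plus EGF, and at 1.12, 0.80 and 1.74 CPM with Arid1a siRNAs. It stood at 0.22, 0.86 and 0.85 CPM under control siRNA plus EGF, and at 1.67 and 0.43 CPM with control siRNA. The groups overlapped, the control siRNA libraries alone spanned much of the range, and no comparison passed the test. The 95% intervals of its log2 change were wide, at -1.56 to 1.23 for the siRNAs in the presence of EGF, -1.1 to 1.2 for the siRNAs without EGF, -2.27 to 0.25 for EGF with Arid1a siRNAs and -2.06 to 0.46 for EGF with control siRNA. Changes of a size inside these intervals are compatible with the data. The fitted log2 change with the siRNAs was 0.05 ± 0.54 without EGF, but 1.44 without control siRNA replicate 1 and -0.50 without replicate 2, none of them called. With control siRNA the fitted EGF change was -0.80 ± 0.59, but 0.58 without control siRNA replicate 1 and -1.35 without replicate 2, again not called.

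Amy1, the amylase gene known in mice from the salivary gland and liver, had the second largest fitted change with the Arid1a siRNAs. Without EGF it was close to Clps (log2 1.05 ± 0.19 against 1.01 ± 0.17). That order was reversed without control siRNA replicate 2 (0.72 against 0.95). It stood at 14.7, 14.1 and 12.4 CPM under Arid1a siRNAs plus EGF, and at 17.9, 19.5 and 22.2 CPM with Arid1a siRNAs. It stood at 4.56, 5.31 and 4.0 CPM under control siRNA plus EGF, and at 12.1 and 6.66 CPM with control siRNA, on 52 to 318 reads a library. All Arid1a siRNA libraries were above the control libraries, and all EGF libraries below the untreated ones, under each paired setting. Amy1 was 2.95-fold higher with the siRNAs in the presence of EGF (log2 1.56 ± 0.19, edgeR adjusted p = 1.57e-05) and 2.07-fold higher without it (log2 1.05 ± 0.19, edgeR adjusted p = 0.000569). The value without EGF was 1.58 on the log2 scale without control siRNA replicate 1 and 0.72 without replicate 2, and it was called both times. EGF lowered Amy1 1.44-fold in cells with Arid1a siRNAs (log2 -0.53 ± 0.16, edgeR adjusted p = 0.0306). That call was lost with a replicate block (edgeR adjusted p = 0.0562) and without any 1 of Arid1a siRNA replicates 2 and 3 and the 3 libraries with EGF (edgeR adjusted p = 0.0562 to 0.105) and in limma on log2(FPKM + 1) over all genes (adjusted p = 0.051). It was kept in the same fit over genes with a mean FPKM of at least 0.5 (adjusted p = 0.00501). In cells with control siRNA EGF lowered it 2.06-fold (log2 -1.04 ± 0.22, edgeR adjusted p = 0.0017), but without control siRNA replicate 1 the log2 change was -0.52 and not called (edgeR adjusted p = 0.0756), and without replicate 2 it was -1.37 and called.

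Of the 50-base windows in the Amy1 transcript, 2.69% occurred in another gene as exact matches. Near matches were not counted, so the share of its reads that could fit another amylase is not known. For Cel, Pnlip, Pnliprp1, Pnliprp2, Clps and Pla2g1b the share was 0%. Amy2b, an amylase gene of the pancreatic cluster, was too low to measure, and the annotation used here held no coding transcript for it. It had 3, 2 and 0 reads with Arid1a siRNAs and EGF, 2, 5 and 2 with Arid1a siRNAs, 0, 1 and 1 with control siRNA and EGF, and 5 and 9 with control siRNA. The count of 0 allows up to 0.251 CPM in the library with Arid1a siRNAs and EGF and 0.21 CPM in that with control siRNA and EGF, for counting error only. With no filter on low counts Amy2b was called lower with EGF in cells with control siRNA (log2 -2.93, edgeR adjusted p = 0.0187) and in no other comparison (edgeR adjusted p = 0.108 to 0.836). That fold rests on 2 reads in 3 libraries against 14 in 2. In Amy2b 40.2% of windows occurred in another gene, and the listed pancreatic copies Amy2a2, Amy2a3, Amy2a4 and Amy2a5 had 0 reads in every library, with 57.2% to 100% of their windows shared. How the counting treated reads that fit several copies is not stated, so these 0 values do not show absence of pancreatic amylase RNA.

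Because Amy1 marks salivary gland and liver, a list of 6 markers of those tissues was followed beside it. Bpifa2 and Smr3a, secreted products of salivary glands, were at 0 reads in all libraries, and the other 4 were tested. The summed level was 65.0 to 77.1 CPM under Arid1a siRNAs plus EGF, 85.8 to 102 CPM with Arid1a siRNAs, 37.7 to 45.3 CPM under control siRNA plus EGF, and 51.9 to 62.4 CPM with control siRNA. Alb, the albumin gene, rose with the siRNAs both in the presence of EGF (log2 0.95, edgeR adjusted p = 8.5e-06) and without it (log2 0.98, edgeR adjusted p = 2.15e-05). Ttr rose as well (log2 0.73 and 0.56), and the other 2 tested markers were not called. With EGF 1 of the 4 rose and 2 fell under each siRNA. The rising marker was Apoa1 (log2 2.21 with Arid1a siRNAs, 2.37 with control siRNA), on 1 to 14 reads a library. The part of these movements in the Amy1 result was not tested. The 10 fibroblast and stellate markers, chiefly Vim and Pdgfrb, summed to 770 to 839 CPM (Arid1a siRNAs, EGF), 756 to 768 CPM (Arid1a siRNAs), 562 to 588 CPM (control siRNA, EGF) and 588 to 611 CPM (control siRNA). The 11 ductal markers summed to 149 to 162 CPM (Arid1a siRNAs, EGF), 109 to 119 CPM (Arid1a siRNAs), 179 to 186 CPM (control siRNA, EGF) and 105 to 119 CPM (control siRNA). The 10 islet markers, nearly all Chga, summed to 811 to 854 CPM (Arid1a siRNAs, EGF), 640 to 782 CPM (Arid1a siRNAs), 1130 to 1170 CPM (control siRNA, EGF) and 711 to 763 CPM (control siRNA). The 8 immune and endothelial markers summed to 10.4 to 12.3 CPM (Arid1a siRNAs, EGF), 8.18 to 9.05 CPM (Arid1a siRNAs), 8.2 to 8.76 CPM (control siRNA, EGF) and 6.27 to 6.95 CPM (control siRNA), mostly from Cd68 and Kdr, with Cd3e and Cdh5 at 0. Gene by gene, 1 tested fibroblast and stellate marker rose and 1 fell with the Arid1a siRNAs in the presence of EGF, and 2 rose and 2 fell without it, Vim rising in both. With EGF, 4 ductal markers rose in cells with Arid1a siRNAs, and 4 rose and 1 fell in cells with control siRNA. Of the 5 tested islet markers 2 rose with EGF in cells with Arid1a siRNAs (Chga and Ppy) and 3 in cells with control siRNA. With the Arid1a siRNAs, 3 ductal markers rose and 2 fell in the presence of EGF, among them Sox9 (log2 -0.87 ± 0.12), and 3 rose and 1 fell without it. Of the islet markers 1 rose and 3 fell with these siRNAs in the presence of EGF, and 1 rose without it. The lower ones included Chga (log2 -0.47 ± 0.07) and Ppy (-1.94 ± 0.29). Kdr rose with the siRNAs both with and without EGF, and Cd68 rose with EGF under both siRNAs. Of the 8 tested acinar markers 2 rose and 4 fell with the Arid1a siRNAs in the presence of EGF, and 2 rose and 5 fell without it. With EGF 1 acinar marker rose and 2 fell in cells with Arid1a siRNAs, and 2 rose and 3 fell in cells with control siRNA. The part of all these markers in the members' changes was not tested either.

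**Figure D3:**
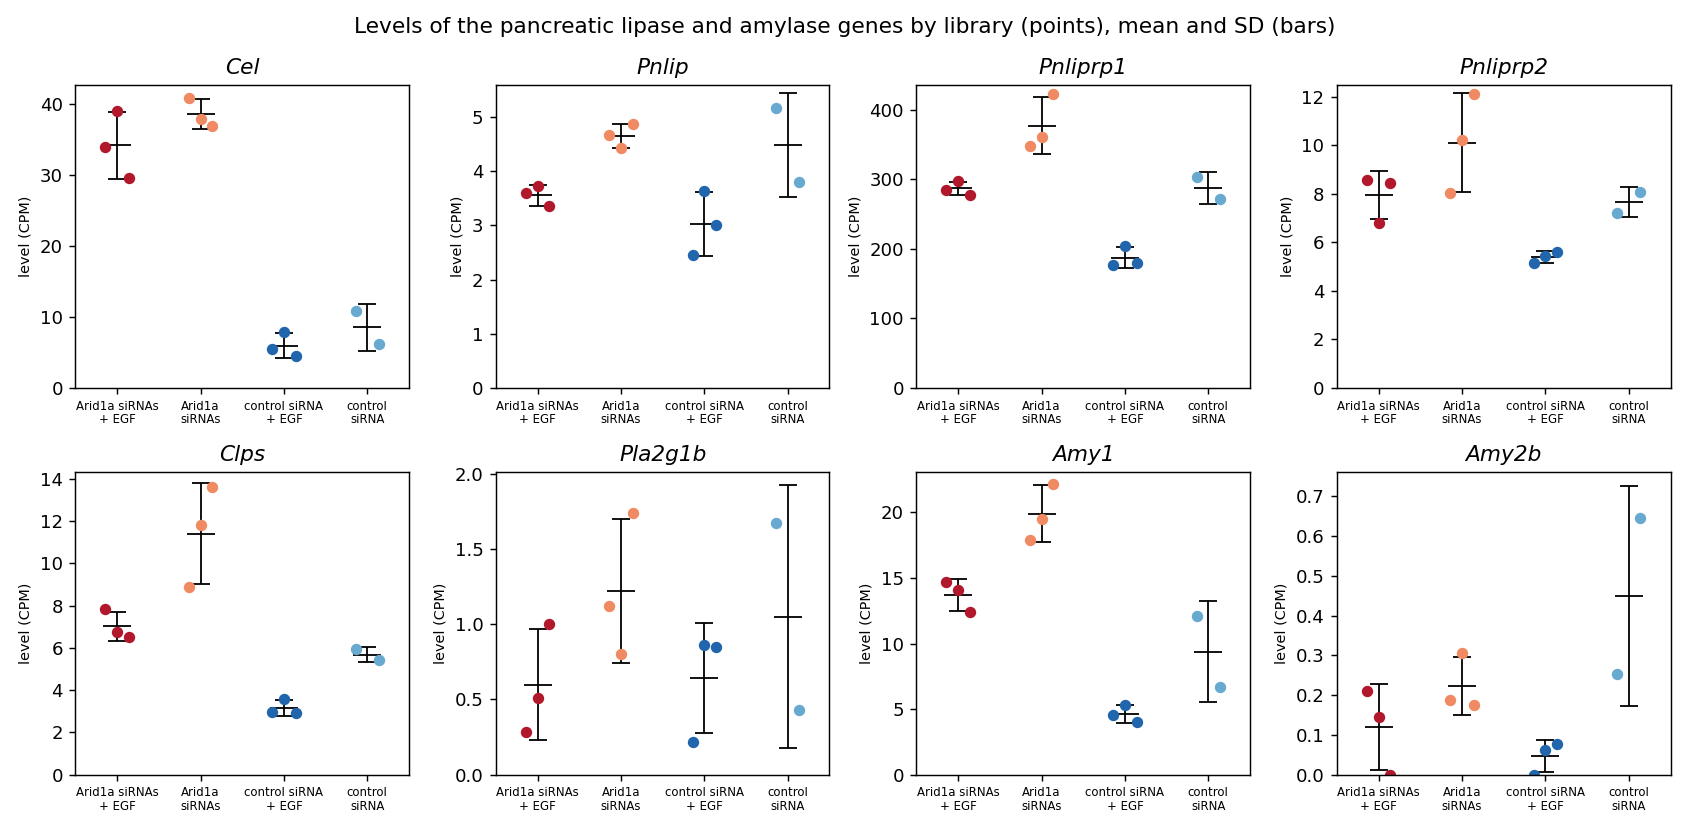
Level (CPM, linear axes from 0) of each member in each library (points), with group mean and SD (bars), for Arid1a siRNAs with EGF, Arid1a siRNAs, control siRNA with EGF, and control siRNA. Cel and Amy1 stand apart between the siRNAs, Pnlip overlaps between them, and Pla2g1b and Amy2b lie below 2 CPM throughout.

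Cells given both treatments were also set against cells given neither. Cel and Amy1 rose, where 22% of genes were called higher and 43.2% in either direction. Cel was 3.91-fold higher (log2 1.97 ± 0.21, edgeR adjusted p = 1.04e-05), at 2.46 without control siRNA replicate 1 and 1.66 without replicate 2, both called. Amy1 was 1.44-fold higher (log2 0.52 ± 0.19, edgeR adjusted p = 0.0405), but this was 0.19 on the log2 scale and not called without control siRNA replicate 2 (edgeR adjusted p = 0.377) and 1.05 without replicate 1. It was lost too with the replicate block (edgeR adjusted p = 0.0626), in a fit of only these groups (edgeR adjusted p = 0.0853), and without control siRNA with EGF replicate 1 or Arid1a siRNAs with EGF replicate 1 or 2 (edgeR adjusted p = 0.0525, 0.111 and 0.0807). Pnliprp1 averaged 287 ± 9.51 CPM with both treatments and 287 ± 22.7 CPM with neither (SD, n = 3 and 2), a log2 change of 0.00 ± 0.09 (95% interval -0.19 to 0.18). The log2 change was 0.30 ± 0.18 for Clps, 0.06 ± 0.16 for Pnliprp2, -0.35 ± 0.19 for Pnlip and -0.96 ± 0.61 for Pla2g1b, and none passed. Without control siRNA replicate 1 or 2 it was 0.37 or 0.25 for Clps, -0.03 or 0.13 for Pnliprp2, -0.09 or -0.53 for Pnlip and 0.08 or -0.08 for Pnliprp1, none called. Pla2g1b was at 0.42 without replicate 1, and was called lower without replicate 2 (log2 -1.51, edgeR adjusted p = 0.0403).

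Whether EGF acted differently under the 2 siRNAs was tested as an interaction, for which 0.944% of genes were called. No member was called by edgeR, DESeq2 or limma-voom, and 0 of the 7 had an unadjusted edgeR p under 0.05. The difference between the EGF responses, with Arid1a siRNAs minus with control siRNA, was 0.51 ± 0.27 for Amy1 (95% interval -0.07 to 1.09) and 0.37 ± 0.30 for Cel (95% interval -0.28 to 1.01) on the log2 scale. It was 0.23 ± 0.12 for Pnliprp1 (-0.02 to 0.47), 0.19 ± 0.26 for Pnlip (-0.36 to 0.74), 0.15 ± 0.23 for Pnliprp2 (-0.33 to 0.63) and 0.14 ± 0.25 for Clps (-0.39 to 0.67). For Pla2g1b it was -0.21 ± 0.84, with an interval of -2.02 to 1.59. Without control siRNA replicate 1 or 2 this difference was -0.01 or 0.84 for Amy1, -0.13 or 0.68 for Cel, 0.14 or 0.30 for Pnliprp1, -0.07 or 0.37 for Pnlip, 0.23 or 0.07 for Pnliprp2, 0.07 or 0.19 for Clps and -1.6 or 0.34 for Pla2g1b, none called. The calls that a member gained or lost between the 2 siRNAs are therefore not shown to be differences in response.

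Other genes of acinar secretion did not share a common direction with the siRNAs. Of all 13343 tested genes, 3164 were called higher and 3097 lower with the siRNAs in the presence of EGF. Without EGF 2505 were called higher and 2685 lower. Of 25 tested genes (34 listed) for other acinar enzymes and secretory products, 6 rose and 6 fell with the Arid1a siRNAs in the presence of EGF (median log2 change 0), and 5 rose and 9 fell without it (median -0.15). Prss3, of the trypsinogen family, fell by 1.91 ± 0.18 with EGF and by 2.19 ± 0.19 without it on the log2 scale. Near-identical trypsinogen genes make that value uncertain. Cela1, a pancreatic elastase, rose by 0.70 ± 0.07 in the presence of EGF and by 0.53 ± 0.08 without it. Reg1, a secreted regenerating protein, rose by 0.71 ± 0.07 in the presence of EGF and by 0.59 ± 0.08 without it, and these rises were all called. Among 13 acinar transcription factor genes, 1 rose and 7 fell with the siRNAs in the presence of EGF, and 2 rose and 8 fell without it (medians -0.23 and -0.36). Rbpjl, the acinar subunit of PTF1, rose by 0.75 ± 0.05 and 0.74 ± 0.06 in these comparisons. By contrast, Ptf1a fell by 0.23 ± 0.07 and 0.47 ± 0.07, and Rbpj by 0.45 ± 0.09 and 0.52 ± 0.09. Nr5a2 fell by 0.54 ± 0.10 and 0.36 ± 0.11, and all of these falls were called. The part of these factors in the members' changes was not tested. Bhlha15, a regulator of the secretory apparatus, fell by 1.02 ± 0.13 in the presence of EGF and by 0.44 ± 0.15 without it. Gata6 fell by 0.43 ± 0.07 in the presence of EGF and by 0.80 ± 0.07 without it, and these falls too were called.

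Lipases and their partners outside the pancreatic group, and enzymes of carbohydrate breakdown, were followed in lists of their own. Among 10 tested enzymes of carbohydrate breakdown (13 listed), 8 rose with the Arid1a siRNAs in the presence of EGF and 7 without it (medians 0.50 and 0.35). Gaa, the lysosomal acid alpha-glucosidase, rose by 0.83 ± 0.05 and 0.81 ± 0.06, and Pygb, a glycogen phosphorylase, rose by 0.45 ± 0.05 and 0.29 ± 0.06 on the log2 scale. Of 19 tested lipases (30 listed) outside the pancreatic group and their partners, 8 rose and 5 fell with the siRNAs in the presence of EGF, and 5 rose and 3 fell without it (medians 0.13 and 0.15). Sel1l, an endoplasmic reticulum protein that lipoprotein lipase needs to mature, rose by 0.96 ± 0.08 in the presence of EGF and by 0.53 ± 0.09 without it. Angptl4, an inhibitor of lipoprotein lipase, rose by 1.40 ± 0.18 in the presence of EGF and by 2.48 ± 0.19 without it. Pnpla3, a lipid droplet hydrolase, fell by 1.17 ± 0.13 and 1.47 ± 0.14 in these comparisons.

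**Figure D4:**
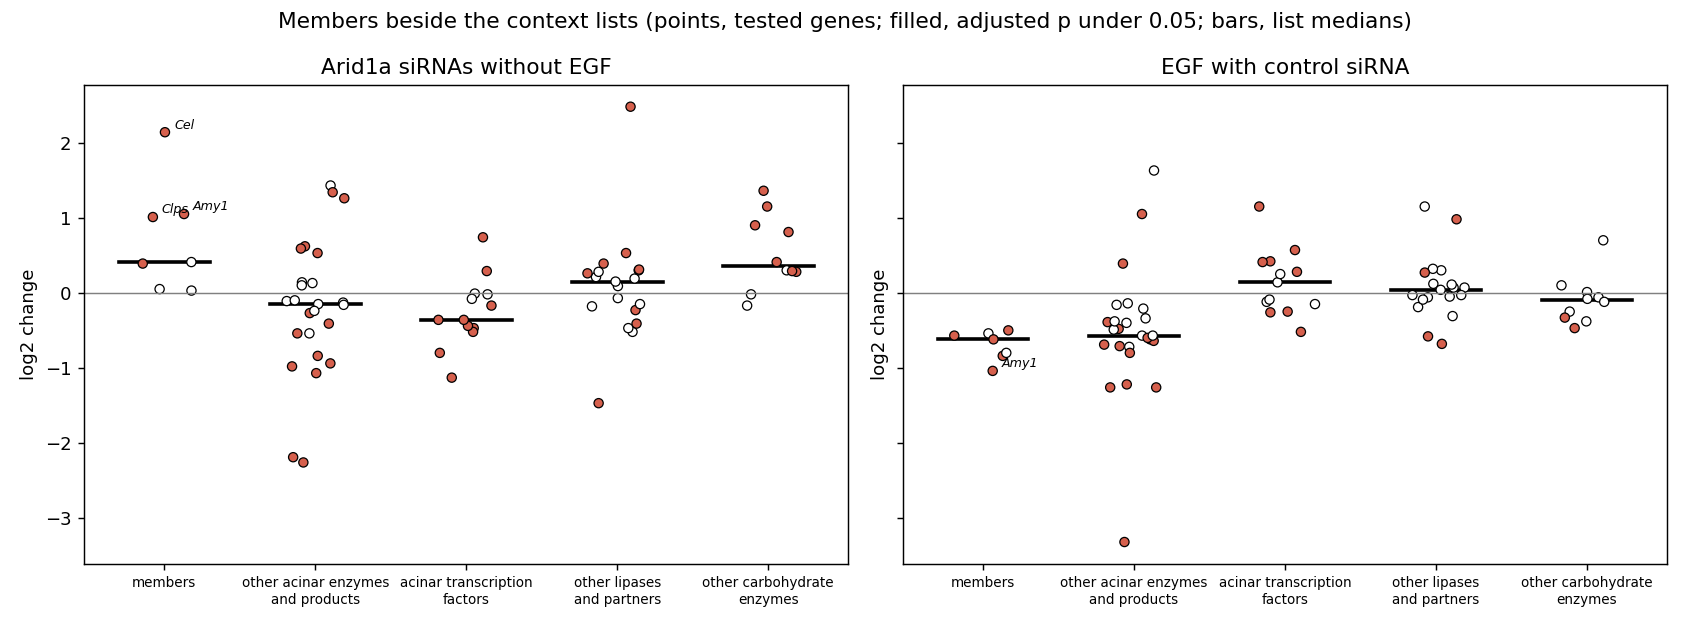
Log2 change of each tested gene (points; filled, adjusted p under 0.05) and list median (bars) for the members and for the other lists, with the Arid1a siRNAs without EGF (left) and with EGF in cells with control siRNA (right). The median of the members is 0.41 on the left, against -0.15 for the other acinar enzymes; on the right the medians are -0.62 and -0.57.

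Most called genes among the other acinar enzymes were lower with EGF. Of the 25, 1 rose and 9 fell in cells with Arid1a siRNAs (median -0.39), and 2 rose and 12 fell in cells with control siRNA (median -0.57). Reg1 fell by 0.58 ± 0.07 and 0.69 ± 0.08 in these comparisons. Prss2 (trypsinogen) rose by 0.61 ± 0.08 in cells with Arid1a siRNAs and by 0.39 ± 0.09 in cells with control siRNA. Cckar, the cholecystokinin receptor, fell by 2.01 ± 0.35 with Arid1a siRNAs and by 3.32 ± 0.35 with control siRNA. These changes were all called, and the interaction was called for none of these genes. Of the 13 acinar transcription factor genes, 4 rose with EGF in cells with Arid1a siRNAs, and 5 rose and 3 fell in cells with control siRNA (medians 0.05 and 0.14). Hnf4a rose by 0.38 ± 0.06 with Arid1a siRNAs and by 0.57 ± 0.07 with control siRNA. Bhlha15 rose by 0.57 ± 0.14 with Arid1a siRNAs and by 1.15 ± 0.15 with control siRNA, both called. Of the 19 other lipases and partners 1 rose and 4 fell with EGF in cells with Arid1a siRNAs, among them Angptl4 (log2 -1.11 ± 0.15) and the monoglyceride lipase gene Mgll (-0.30 ± 0.07). In cells with control siRNA 2 rose and 2 fell, the lower ones being Sel1l (-0.68 ± 0.08) and the triglyceride lipase gene Pnpla2 (-0.58 ± 0.08). Sel1l (-0.26 ± 0.08) and Pnpla2 (-0.29 ± 0.07) were called lower with Arid1a siRNAs too. Of the 10 carbohydrate enzymes 1 rose and 2 fell with EGF in cells with Arid1a siRNAs. Pygm rose by 0.80 ± 0.21, and Pygb (-0.31 ± 0.05) and the beta-galactosidase gene Glb1 (-0.25 ± 0.07) fell. In cells with control siRNA 2 fell, Pygb (-0.47 ± 0.06) and Glb1 (-0.33 ± 0.08).

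With both treatments against neither, 4 of the 25 other acinar enzymes and products rose and 10 fell (median -0.53), the clearest being Prss3 (log2 -2.26 ± 0.19) and the carboxypeptidase gene Cpa1 (-0.65 ± 0.07). Of the transcription factor genes 4 rose and 5 fell (median -0.11), with -0.94 ± 0.07 for Gata6 and 0.63 ± 0.06 for Rbpjl. Among the other lipases and partners 7 rose and 3 fell (median 0.18), and Pnpla3 (-1.20 ± 0.14) and Mgll (-0.53 ± 0.08) had the smallest p-values. In the carbohydrate list 3 rose (median 0.24), among them Gaa (0.77 ± 0.06) and the muscle-type phosphorylase gene Pygm (2.16 ± 0.27).

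Across the 11 libraries the members varied together to different degrees, given here as a description of libraries that share treatments. Pearson's r of log2 CPM was 0.98 between Pnliprp1 and Clps, 0.97 between Clps and Amy1, and 0.94 between Cel and Amy1. It was 0.53 between Cel and Pnlip and 0.72 between Cel and Pnliprp2. With group means taken out, r was 0.78, 0.59 and 0.83 for the first 3 pairs and 0.77 and -0.41 for the last pairs. Among 9510 other genes, those most like Cel were Creb3l3 (r = 0.992), Ppp2r5b (0.992) and Atp6ap1 (0.991). Creb3l3 averaged 43.2 CPM under Arid1a siRNAs plus EGF, 53.3 CPM with Arid1a siRNAs, 11.2 CPM under control siRNA plus EGF, and 13.4 CPM with control siRNA. Its log2 change with the siRNAs was 1.94 in the presence of EGF and 1.97 without it. For Ppp2r5b these were 0.41 and 0.34, and for Atp6ap1 0.44 and 0.35, as r does not measure the size of a change. Ypel3 (0.992), Pld3 (0.990) and Haus4 (0.984) were most like Amy1. Vtn (0.985), Pola2 (0.984) and Anxa13 (0.982) were most like Clps, and Ccdc91 (0.990), Fam131a (0.988) and Rcn3 (0.988) most like Pnliprp1. For Pnliprp2 they were Snap25 (0.972), Ankmy2 (0.968) and Gstm6 (0.965), and for Pnlip Map1lc3b (0.960), Mospd3 (0.958) and Rfk (0.955).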

How the data were processed

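Polyadenylated RNA of 11 libraries was prepared with a TruSeq v2 kit, per the labels' protocols. Per the submitters' processing notes, the authors used TopHat2 2.1.1, HTSeq 0.9.1, Cuffnorm 2.2.1.2, Cuffdiff 2.2.1.5 and the build mm9. They deposited raw read counts per gene symbol for each library and a table of FPKM values, whose normalisation is not given in the sources used here. There, 3 control columns could not be tied to the 2 control libraries and were left out. Strand is not marked by this kit.

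From the counts, edgeR 4.0.16 (R 4.3.3) kept 13343 genes (57.3%, 99.96% of reads) by filterByExpr (minimum count 10, total 15). It scaled libraries by TMM and fitted 4 group means over all libraries by the robust quasi-likelihood method (estimateDisp with legacy=TRUE, 7 residual degrees of freedom). Low read counts limit the precision for Pla2g1b and Amy2b. DESeq2 1.42.0, limma 3.58.1 (voom, and on log2(FPKM + 1)), other scalings, no filter, fits of the groups compared, a replicate block and leaving out each library were alternatives. The test was also run on simulated counts with far fewer changed genes than the treatments gave here, which does not measure its error in these data.

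Replicates showed no copied library. Same-number libraries of the Arid1a siRNA and control siRNA groups with EGF deviated together (r 0.129 to 0.303). In the same 2 siRNA groups without EGF r was 0.05 to 0.316. Between control siRNA with and without EGF it was -0.381 to -0.188, while libraries of different number reached 0.381 there. Replicate numbers are therefore not shown to mark pairing. A block for the number changed no member's call for the Arid1a siRNAs in the presence of EGF. Lengths are from GENCODE vM21 and promoters from RefSeq GRCm38.p6, as no coordinates stand in the count tables.

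The members and gene lists were chosen with earlier results of these data known. All members are named. From the other acinar enzyme, acinar transcription factor, other lipase and carbohydrate lists, the rule names the 2 smallest p-values among called genes. It does so in each comparison with calls other than the interaction. It also names the 3 genes most correlated with each called member (log2 CPM of at least 3 on average). Arid1a, Ptf1a, Rbpj, Nr5a2 and the genes of the cell type marker lists are named outside this rule. A result that meets this rule is not reported here.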

Additional observations from a re-analysis of the deposited data

How the results depend on the processing

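Over 832 alternative values of the members' log2 changes, 791 kept direction, where called, and side of the threshold, 33 lost a call, 8 gained one and 0 called values reversed. The Cel, Pnliprp1 and Clps calls with the Arid1a siRNAs, and that of Amy1, held in all alternatives run, with and without EGF. For EGF with control siRNA, DESeq2 called 3 members against 5, and leaving out 1 library gave 2 to 5. For both treatments against neither, 1 member against 2 was called with only the groups compared and 1 with the replicate block, and 1 to 2 when 1 library was left out. For the interaction, 56 genes were called with the replicate block against 126, and 55 to 153 when 1 library was left out. Leaving out 1 library gave 4 to 5 members for the siRNAs without EGF, 5 with EGF, and 2 to 4 for EGF with Arid1a siRNAs. For EGF with Arid1a siRNAs, limma on log2(FPKM + 1) over all genes called none of Pnliprp1 (adjusted p = 0.0561), Clps (0.0737) and Amy1 (0.051), nor Pnliprp2 with the siRNAs in the presence of EGF (0.0951). With a pseudocount of 0.1 these values were 0.05, 0.0697, 0.0566 and 0.0778. Over genes with a mean FPKM of at least 0.5 all 4 were called (0.00556, 0.00902, 0.00501 and 0.0159). These FPKM fits use 9 libraries. The setting legacy=FALSE, added after the data were seen, called Pnliprp2 with the siRNAs without EGF (adjusted p = 0.0494). The cause of these changes was not tested. Depth limits Pla2g1b and Amy2b.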
